A study of Arabidopsis thaliana with 24 samples.

Results

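In Arabidopsis thaliana roots, 93 probe sets had lower intensities 35 min after nitrate in the reference line and in nlp6 seedlings, and a smaller difference in the double mutant nlp6nlp7. They were chosen by their values among 22714 probe sets of the ATH1 array, a short-oligonucleotide array in which a probe set reports 1 transcript or a few. Values are log2 of the intensity plus 26, and a response is the mean at 35 min minus the mean at 0 min. The mean of the Col-0 and nlp6 responses, called the reference response here, had to be at most -0.8. The mean Col-0 intensity at 0 min had to be at least 100, and the nlp6nlp7 response had to be at most 0.6 of the reference response. Of 317 probe sets lowered to that extent at that level, 98 met the ratio, and 5 of these were left out by name along with 5 other named genes. The 93 members are 30.3% of the 307 lowered probe sets that stayed, and the other 214, which kept more than 0.6 of the reference response in nlp6nlp7, serve for comparison.

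The 24 arrays measured root RNA of the reference line Col-0, of nlp6 and nlp7, mutated in 1 gene each, and of the double mutant nlp6nlp7. Roots were taken before (0 min) and 35 min after transfer of seedlings from 12.5 mM ammonium succinate to 25 mM KNO3 at pH 5.5. All groups shared 9 days on ammonium, continuous light and the pH pretreatment, and each of the 8 groups held 3 biological repeats of about 200 seedlings grown in 3 boxes. The mutant alleles are not given in the labels, and no group received potassium without nitrate or a transfer without it. Nitrate, potassium, any loss of ammonium or succinate, handling and elapsed time thus cannot be told apart in any response. Whole roots were extracted, so fewer cells of a type and less RNA per cell cannot be told apart either.

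NLP6 and NLP7 are NIN-like proteins, plant transcription factors with an RWP-RK DNA-binding domain and a PB1 domain for protein contacts. NLP7 is known to be held in the nucleus when nitrate is supplied and to act on many genes of the primary nitrate response, which starts within minutes. Nitrate is also known to act on auxin and cytokinin in roots, the hormones that set root branching and growth.

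Array medians lay between 163 and 196, and the arrays had been brought to one scale, with a mean of 500.1 to 500.5 once 2% of values at either end were trimmed. No probe set is named for NLP6 or NLP7 in the tables used here, so the labels were not checked against the mutated genes. Root markers could be read for 2 of 13 listed genes, EXPA7 and EXPA18 of root hairs, with a summed intensity of 818 to 1563 over the arrays. Shoot markers could be read for 4 of 12, with a summed intensity of 298 to 669. Replicate 1 of nlp7 differed from replicates 2 and 3 at both times, and results that rest on nlp7 are given without it where that matters.

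Of the 93 members, 45 match 1 gene, 2 match a pair of genes each, and 46 (49.5%) are without a gene name here. The share without a name was 56.1% among the other lowered probe sets and 38.4% among all tested. The median Col-0 intensity of the members at 0 min was 589, with a range of 116 to 6225, against 509 in the other lowered probe sets and 182 over all. The lowest value of any member on any array was 4, and none lay at the floor of 1.

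The values that chose the members are given as a description. The median reference response was -1.02, close to the -1.05 of the other lowered probe sets. In nlp6nlp7 the median response was -0.49, against -0.88 in the other lowered probe sets. Expressed on linear intensity, the median member kept 43.8% of its 0 min value in Col-0 at 35 min, 48.4% in nlp6 and 68.9% in nlp6nlp7. The median ratio of the nlp6nlp7 response to the reference response was 0.48, and it was under 0.25 for 5 members: 264643_at (-0.10), AT4G00910 (-0.03), AT1G14200 (0.04), 249255_at (0.06) and 249765_at (0.20). Only 264643_at and AT4G00910 had a response above 0 in nlp6nlp7, of 0.10 and 0.03 on the log2 scale.

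The limits cut through a continuous spread. Just inside the ratio of 0.6 were AT2G41380 (0.589), 262369_at (0.599) and AT2G44940 (0.6 after rounding), and just outside were 249941_at (0.601), 245186_at (0.601) and AT5G37450 (0.602). Nearest to the reference response of -0.8 were 265272_at (-0.811), 259723_at (-0.807) and AT2G20030 (-0.806) on the inside, with 263868_at (-0.7998), EXPA15 (-0.797) and 260427_at (-0.796) outside. When each of the 18 arrays behind the rule was left out in turn, 52 of the 93 met the rule every time.

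**Figure D1:**
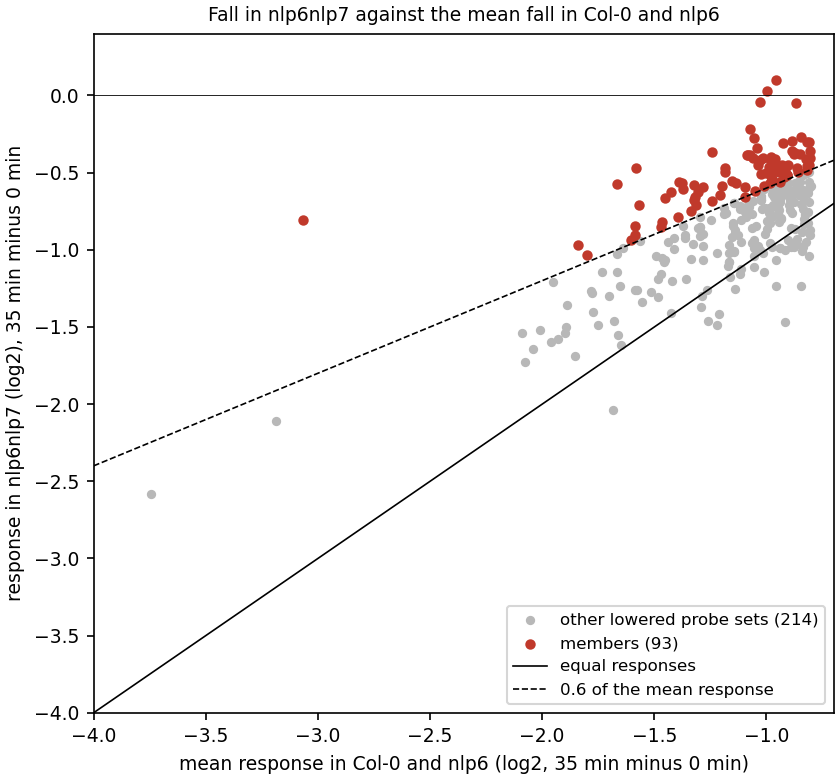
Response of the 93 members (red) and of the 214 other lowered probe sets (grey) in nlp6nlp7 (vertical axis, log2) against the mean response of Col-0 and nlp6 (horizontal axis, log2). The dashed line is 0.6 of the reference response, the rule's limit, the solid line marks equal responses, and 1 member, 258133_at, stands far to the left at -3.07 with -0.80 in nlp6nlp7.

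The nlp7 arrays took no part in the choice, so they were used to test whether the members fall when NLP7 alone is mutated. All 93 members had a response below 0 in nlp7, and 66 (71.0%) were called lower by limma with a Benjamini-Hochberg adjusted p under 0.05 over all probe sets, against 2.61% of the 22714. None was called higher, against 2.51% of all probe sets. Of the other 214 lowered probe sets, 170 (79.4%) were called lower in nlp7. Among the members, 37 of the 45 with 1 gene and 27 of the 46 without a name were called. With only the 6 nlp7 arrays in the fit, 19 members were called, and without replicate 1 of nlp7 at both times 60 were called.

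In size the nlp7 responses lay between the reference and the double mutant for most members. The median nlp7 response was -0.65, against -0.81 in the other lowered probe sets and -0.02 over all probe sets, and the median member kept 61.7% of its intensity. For 77 members the nlp7 response lay between the reference response and that of nlp6nlp7, for 15 it was smaller than in nlp6nlp7, and for 261297_at it was larger than the reference response. The median ratio of the nlp7 response to the reference response was 0.614, with quartiles of 0.524 and 0.708, against 0.769 in the other lowered probe sets. That ratio was at most 0.6 for 41 members (44.1%) and for 42 of the other 214 (19.6%). The reference response also took part in the choice, so these ratios are not free of the rule and carry no test. The rule also set the reference and nlp6nlp7 responses of the members apart, so a place between them is a description only. Of the other 214, where the rule set no such gap, 72 lay between. Between the quartiles of the members' reference response, where 47 members and 96 others lay, the median nlp7 response was -0.65 and -0.78.

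Taken by replicate number, the median member response was -1.10, -1.06 and -1.05 in Col-0, and -1.03, -1.02 and -1.004 in nlp6. In nlp7 it was -0.64, -0.57 and -0.75, and in nlp6nlp7 it was -0.47, -0.51 and -0.48. These medians are a description with no test, since the rule set those of Col-0 and nlp6 low and those of nlp6nlp7 high. Whether the replicate numbers pair arrays is not settled. The spread of the nlp7 values (SD 0.09, n = 3) was the widest of the 4 genotypes. Array by array, all 3 nlp7 values at 35 min lay below all 3 at 0 min for 71 members (76.3%), against 9.25% of all probe sets and 86.9% of the other lowered ones.

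**Figure D2:**
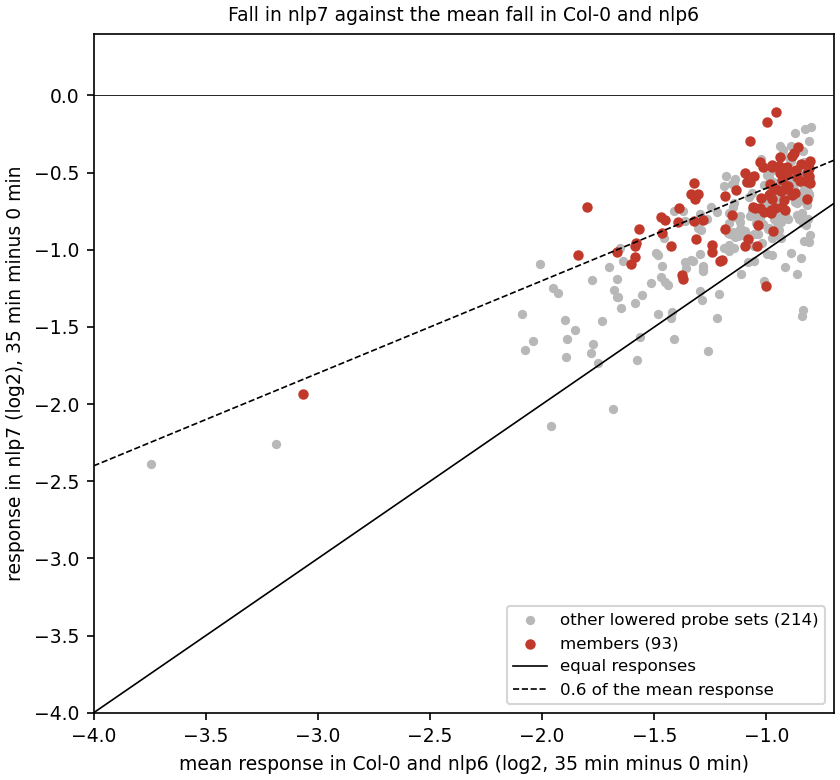
Response in nlp7 (vertical axis, log2), on arrays the rule did not use, against the mean response of Col-0 and nlp6 (horizontal axis, log2), for the 93 members (red) and the 214 other lowered probe sets (grey). All members lie below 0 and 41 of them on or above the dashed line of 0.6, with 258133_at lowest at -1.93.

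The nlp6 single mutant was set against Col-0, a difference that the mean of both does not fix. No member was called different by limma (2 of the 22714 were, 0.00881%), and the lowest adjusted p among members was 0.73, that of 250103_at, with a difference of 0.50 ± 0.13 (SE). At an unadjusted p under 0.05 there were 3 members (3.23%), of which 2 were above 0 and 1 below, against 5.02% of all probe sets. The median difference was 0.12, and 66 members (71.0%) were above 0, a smaller fall in nlp6, against 45.1% of all and 44.4% of the other lowered probe sets. A response differing in nlp6 was thus not detectable for any single member with these arrays, which does not show that the responses are alike.

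Genes placed under auxin made up 4 of the 47 members with a gene name: the groups by role used here were formed after the members were known. Auxin, the main growth hormone of roots, is made by YUC flavin monooxygenases and inactivated in part by GH3 enzymes that join it to amino acids. YUC6 is on the making side of this route, and GH3.17 and WES1 (GH3.5) are on the other. AT1G48690 was placed with them by its GH3 family alone, and whether it acts on auxin was not examined. In nlp7, 3 of the 4 fell by the limma test, near the 71.0% of all members, and YUC6 did not pass it. No share of auxin genes among all genes was computed, so nothing particular to auxin is read from this.

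GH3.17 (AT1G28130) was the brightest member with 1 gene. In Col-0 its intensities were 3535, 3937 and 3590 at 0 min and 1188, 1199 and 1047 at 35 min, and in nlp6 they were 3098, 3071 and 3204, then 1064, 1173 and 1026. The nlp7 arrays gave 2446, 3658 and 3505 before and 1476, 1685 and 1629 after nitrate, and those of nlp6nlp7 gave 4242, 4624 and 4510, then 2693, 2289 and 2150. Every genotype was lower at 35 min with no overlap, and nlp6nlp7 was the highest at both times. In nlp7 GH3.17 fell by 0.97 on the log2 scale (SE 0.12, n = 3 per time, limma adjusted p = 1.9e-05), and with only the nlp7 arrays the adjusted p was 0.051. The response was -1.58 in the reference and -0.91 in nlp6nlp7.

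WES1 had 483, 557 and 676 at 0 min and 301, 268 and 291 at 35 min in Col-0, with 527, 578 and 754, then 327, 349 and 273, in nlp6. The nlp7 values were 344, 499 and 460 and then 273, 252 and 298, and those of nlp6nlp7 were 333, 404 and 364 and then 250, 261 and 243. At 0 min the double mutant lay below all Col-0 and nlp6 arrays, and at 35 min it did so again by a smaller distance. WES1 fell by 0.60 in nlp7 (SE 0.14, limma adjusted p = 0.015). The call was lost with only the nlp7 arrays (adjusted p = 0.17), and without nlp7 replicate 2 at 0 min (0.095), replicate 3 at 0 min (0.060) or replicate 2 at 35 min (0.074).

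YUC6 was among the dimmest members, with 146, 106 and 137 at 0 min and 79, 70 and 85 at 35 min in Col-0, and 154, 176 and 154, then 59, 16 and 54, in nlp6. In nlp7 it had 173, 101 and 95 and then 58, 86 and 17, and in nlp6nlp7 70, 125 and 118 and then 68, 68 and 90. The nlp6nlp7 arrays overlapped between the times, and the nlp7 arrays did not. Its nlp7 response was -0.97 ± 0.29 (SE, limma adjusted p = 0.065). It passed the threshold with the 40th percentile of intensities as pseudocount (adjusted p = 0.043), without the dimmest probe sets (0.042) and without nlp7 replicate 2 at 35 min (0.016). AT1G48690 fell by 0.89 in nlp7 (SE 0.15, limma adjusted p = 0.00054).

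Of the early auxin response genes, a list that includes WES1, 6 of 11 could be read and 2 fell in nlp7 by the limma test. Beside WES1 this was ARL, an ARGOS-like growth gene left out of the members by name, with -2.18. The other 4 did not pass: LBD29 (-0.55) and LBD16 (-0.09), transcription factors of lateral root formation, and the auxin-conjugating GH3.3 (-0.30) and GH3.1 (-0.11). WES1 was the only listed gene among the members.

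The 2 transcription factor genes among the named members were both called lower in nlp7, as were 37 of the 45 members with 1 gene. bZIP44, of the basic leucine zipper family, had 1591, 1635 and 1607 at 0 min and 883, 825 and 843 at 35 min in Col-0, and 1852, 2062 and 1872, then 938, 1077 and 948, in nlp6. In nlp7 the values were 1359, 1270 and 1385 and then 884, 904 and 977, and in nlp6nlp7 they were 1202, 918 and 991 and then 850, 732 and 912. Before nitrate all arrays of both nlp7-carrying lines lay below those of Col-0 and nlp6, and after it the 4 genotypes were much closer. bZIP44 fell by 0.53 in nlp7 (SE 0.10, limma adjusted p = 0.0017). AT2G44940, of the AP2/ERF family, fell by 0.50 in nlp7 (SE 0.09, adjusted p = 0.00084). It had 759, 678 and 693 at 0 min in nlp6nlp7, within the range of Col-0 and nlp6, and 484, 454 and 477 at 35 min, above all their arrays.

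Protein turnover was represented by 5 members: AT1G14200, AT2G20030, AT1G20823 and AT1G55530 encode RING-type ubiquitin ligases, and AT5G01720 an F-box protein, the substrate-binding part of another kind of ubiquitin ligase. In nlp7, 3 of the 5 fell by the limma test, against 37 of the 45 members with 1 gene. These were AT1G55530 at -0.64, AT2G20030 at -0.57 and AT5G01720 at -0.55. AT1G14200 had the third-largest gap between the reference and the double mutant among members with 1 gene. It had 290, 313 and 206 in Col-0 at 0 min and 48, 98 and 143 at 35 min, and 157, 198 and 218, then 114, 89 and 111, in nlp6. The nlp7 arrays gave 261, 201 and 256 and then 235, 164 and 125, and the nlp6nlp7 arrays gave 207, 162 and 180 and then 210, 148 and 176. In nlp6nlp7 the values at the 2 times overlapped. Its nlp7 response, -0.43 ± 0.24 (SE, limma adjusted p = 0.46), did not pass the test.

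AT1G20823 had 285, 331 and 311 at 0 min and 121, 160 and 139 at 35 min in Col-0, and 254, 352 and 327, then 144, 150 and 181, in nlp6. In nlp7 these were 171, 314 and 278 and then 138, 217 and 198, and in nlp6nlp7 304, 294 and 322 and then 208, 201 and 228. The double mutant matched Col-0 before nitrate and lay above it afterwards. The nlp7 response was -0.40 ± 0.17 (SE, limma adjusted p = 0.29). The adjusted p was 0.022 with replicate number as a block within each genotype and 0.11 with it as a block across groups. It was 0.021 without nlp7 replicate 1 at 0 min, the lowest of its group, 0.097 without that replicate at both times, and 0.69 with only the nlp7 arrays.

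Protein folding had 5 members, all called lower in nlp7, where 37 of the 45 members with 1 gene were called. Fes1A is an exchange factor of the chaperone Hsp70, AT3G12050 (with an Aha1 domain) and SGT1A work with Hsp90, and AT1G66080 resembles Hikeshi, a carrier of Hsp70 into the nucleus known from human cells. The fifth probe set matches AT1G59860 or AT1G07400, both small heat shock proteins, and cannot tell them apart. By the limma test in nlp7, SGT1A fell by 0.73 (adjusted p = 0.00019), AT1G66080 by 0.72 (0.0060), Fes1A by 0.55 (0.00075) and the small heat shock pair by 1.16 (0.019).

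AT3G12050 was the second-brightest member with 1 gene. Its Col-0 intensities were 2840, 2898 and 3660 at 0 min and 1886, 1755 and 1767 at 35 min, and those of nlp6 were 3432, 3778 and 3609, then 1845, 2166 and 1916. The nlp7 values were 2507, 3032 and 2843 and then 1816, 2133 and 2157, and the nlp6nlp7 values were 2505, 2383 and 2269 and then 2041, 1916 and 1844. Thus the 4 genotypes overlapped at 35 min and nlp6nlp7 lay below all Col-0 and nlp6 arrays at 0 min. It fell by 0.45 in nlp7 (SE 0.10, limma adjusted p = 0.011), a call lost with only the nlp7 arrays (0.20) and without nlp7 replicate 2 at 0 min (0.067) or replicate 1 at 35 min (0.070).

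The largest gap between the reference and nlp6nlp7 among members with 1 gene was that of AT1G53180, at 1.09. Its intensities were 1255, 1425 and 1225 at 0 min and 380, 364 and 410 at 35 min in Col-0, and 1215, 1237 and 1213, then 330, 395 and 400, in nlp6. In nlp7 it had 1279, 1258 and 1076 and then 701, 578 and 483, and in nlp6nlp7 1033, 977 and 982 and then 683, 635 and 665. At 35 min every nlp7 and nlp6nlp7 array lay above every Col-0 and nlp6 array. AT1G53180 fell by 1.02 in nlp7 (SE 0.11, limma adjusted p = 2.6e-06).

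AT5G25280, which encodes a serine-rich protein, had 2823, 2801 and 2756 at 0 min and 1037, 1230 and 1018 at 35 min in Col-0, and 2606, 2397 and 2310, then 884, 1175 and 1218, in nlp6. In nlp7 the arrays gave 3110, 2333 and 2144 and then 1232, 1292 and 1259, and in nlp6nlp7 2044, 1771 and 2305 and then 1568, 1605 and 1531. After nitrate all nlp6nlp7 values exceeded those of every other genotype. AT5G25280 fell by 0.97 in nlp7 (SE 0.13, limma adjusted p = 5.0e-05), and the nlp6nlp7 response was -0.37.

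AT3G26510 carries a PB1 domain, the kind of protein-contact domain that NLPs also have. Col-0 gave 627, 638 and 587 at 0 min and 168, 164 and 191 at 35 min, and nlp6 gave 630, 491 and 535, then 187, 171 and 179. For nlp7 the values were 683, 503 and 525 and then 267, 267 and 246, and for nlp6nlp7 567, 496 and 551 and then 288, 266 and 311. Before nitrate the nlp6nlp7 values lay within the range of nlp6, and afterwards both lines with the nlp7 mutation lay above Col-0 and nlp6. AT3G26510 fell by 1.05 in nlp7 (SE 0.11, limma adjusted p = 1.4e-06).

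**Figure D3:**
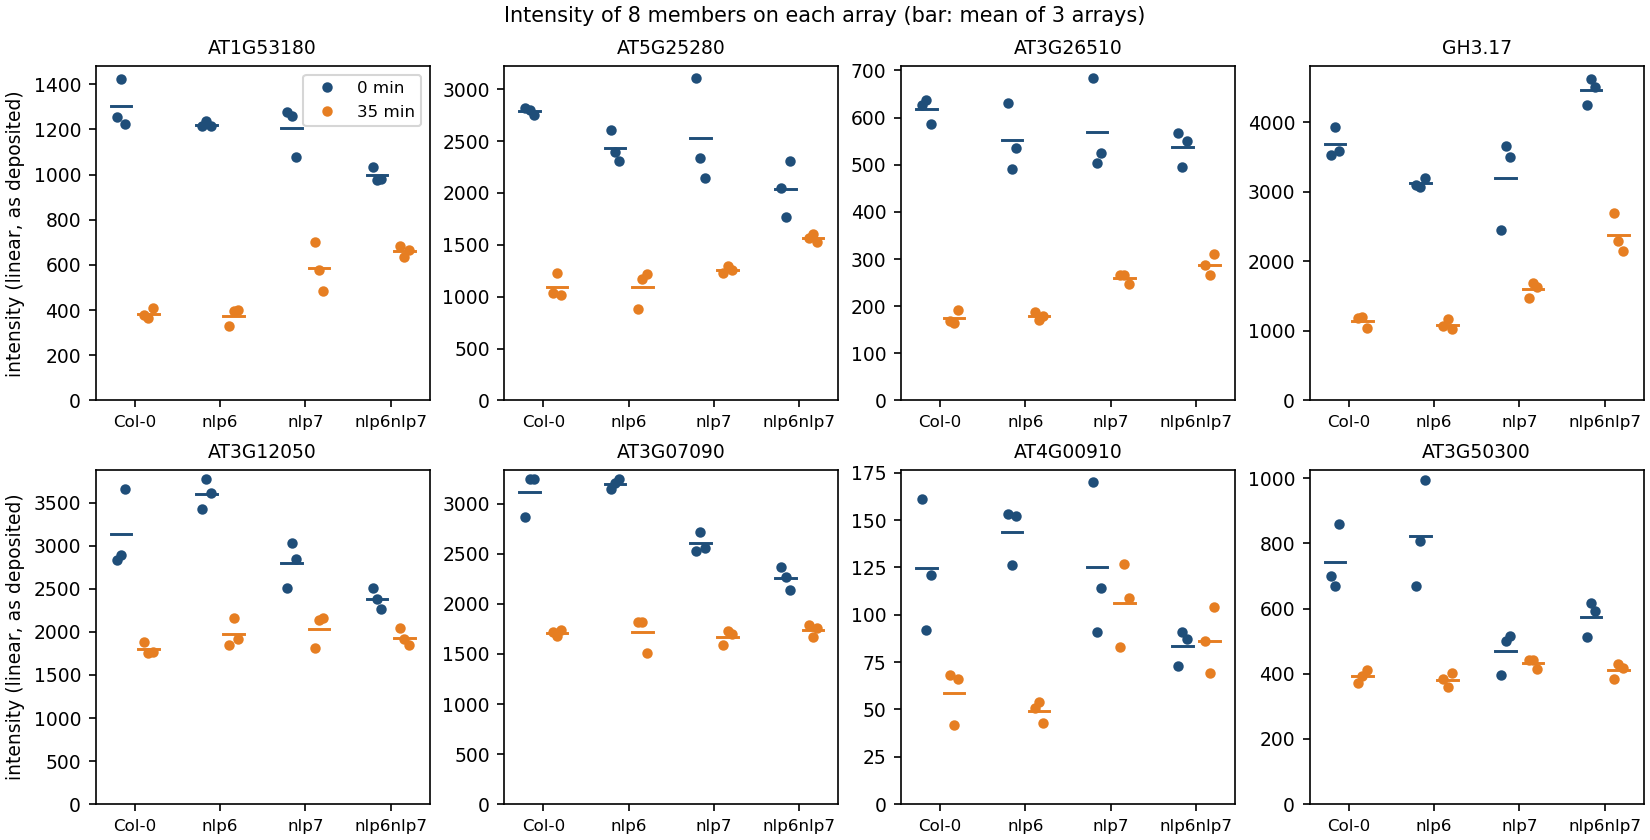
Intensity (linear, as deposited) of 8 members on each of the 24 arrays, with 0 min in blue, 35 min in orange and the mean of 3 arrays as a bar. For AT1G53180 and AT3G26510 all nlp7 and nlp6nlp7 arrays lie above those of Col-0 and nlp6 at 35 min, and AT1G53180 is also lowest in nlp6nlp7 at 0 min. AT3G12050 and AT3G07090 differ between genotypes mainly at 0 min, and GH3.17 is highest in nlp6nlp7 at both times.

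AT4G23880 and its direct neighbour AT4G23870 were both members. AT4G23880 had 307, 286 and 267 at 0 min and 74, 86 and 55 at 35 min in Col-0, and 266, 262 and 365, then 63, 68 and 37, in nlp6. In nlp7 it had 261, 205 and 231 and then 122, 110 and 73, and in nlp6nlp7 191, 172 and 188 and then 114, 59 and 77. Times did not overlap in any genotype. AT4G23880 fell by 1.03 in nlp7 (SE 0.19, limma adjusted p = 0.0015), and AT4G23870 fell by 0.57 (SE 0.12, adjusted p = 0.0060). In the TAIR10.1 gene order they lie 17 and 18 protein-coding genes from NLP7, and SGT1A lies 47 from it. Whether the place near the mutated gene bears on their values was not tested. Other members close together were AT5G05840 and the cytokinin-glucosylating UGT76C2, with 1 gene between them, and AT5G06280 and AT5G06330, with 4 between.

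AT1G74940, of the FLZ zinc finger family, had 905, 1022 and 1057 at 0 min and 357, 282 and 432 at 35 min in Col-0, and 939, 1124 and 976, then 414, 512 and 378, in nlp6. The nlp7 arrays read 818, 662 and 838 and then 498, 458 and 500, and the nlp6nlp7 arrays 848, 961 and 698 and then 494, 546 and 548. No genotype overlapped between times. The fall in nlp7 was -0.64 ± 0.14 (SE, limma adjusted p = 0.0089), and it did not pass with only the nlp7 arrays (0.073) or without nlp7 replicate 1 at both times (0.083).

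AT2G36950, with a heavy-metal-binding domain, had 1063, 1021 and 1090 at 0 min and 326, 249 and 383 at 35 min in Col-0, and 1207, 1120 and 1378, then 341, 367 and 532, in nlp6. In nlp7 the intensities were 1457, 890 and 961 and then 520, 593 and 385, and in nlp6nlp7 735, 708 and 676 and then 425, 283 and 373. Before nitrate nlp6nlp7 lay below all other arrays, and after it within the range of Col-0 and nlp6. AT2G36950 fell by 1.09 in nlp7 (SE 0.20, limma adjusted p = 0.0014), the lowest nlp7 response of a member with 1 gene, and the adjusted p was 0.093 with only the nlp7 arrays. That rank rests on nlp7 replicate 1. Without it at both times the response of AT2G36950 was -0.91, and that of GH3.17 was -1.10.

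AT1G60010 had 1054, 1487 and 1451 at 0 min and 453, 500 and 299 at 35 min in Col-0, and 1395, 1577 and 1354, then 362, 299 and 384, in nlp6. In nlp7 it read 747, 888 and 897 and then 481, 436 and 595, and in nlp6nlp7 741, 990 and 808 and then 369, 394 and 428. Both lines with the nlp7 mutation started below all arrays of Col-0 and nlp6. It fell by 0.72 in nlp7 (SE 0.17, limma adjusted p = 0.013). That call was lost with only the nlp7 arrays (0.082), without nlp7 replicate 1 at both times (0.053), and without replicate 2 (0.058) or 3 (0.052) at 0 min or replicate 2 at 35 min (0.079).

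Among the brightest members, AT3G07090 had 2862, 3243 and 3243 at 0 min and 1722, 1675 and 1736 at 35 min in Col-0, and 3144, 3209 and 3249, then 1816, 1821 and 1505, in nlp6. The nlp7 values were 2530, 2716 and 2562 and then 1592, 1731 and 1695, and the nlp6nlp7 values 2366, 2271 and 2141 and then 1789, 1670 and 1762. All genotypes met at 35 min, and at 0 min the order was Col-0 and nlp6 above nlp7 above nlp6nlp7 with no overlap between these 3 levels. AT3G07090 fell by 0.63 in nlp7 (SE 0.08, limma adjusted p = 2.7e-05).

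AT1G11540 had 2790, 2541 and 2860 at 0 min and 1430, 1254 and 1297 at 35 min in Col-0, and 2815, 2798 and 3069, then 1586, 1772 and 1577, in nlp6. Its nlp7 intensities were 2175, 2629 and 2285 and then 1311, 1489 and 1400, and in nlp6nlp7 they were 2414, 1870 and 2170 and then 1746, 1344 and 1478. Before nitrate nlp6nlp7 lay below every Col-0 and nlp6 array and overlapped nlp7, and afterwards nlp6 lay above Col-0 and nlp7. AT1G11540 fell by 0.74 in nlp7 (SE 0.11, limma adjusted p = 0.00014).

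Members with no call in nlp7 numbered 27, and the smallest responses there belonged to AT3G50300 and AT4G00910. AT3G50300, of the acyltransferases with an HXXXD motif, had 700, 670 and 859 at 0 min and 372, 394 and 410 at 35 min in Col-0, and 669, 808 and 993, then 384, 359 and 401, in nlp6. The nlp7 arrays gave 396, 499 and 517 and then 442, 443 and 413, and the nlp6nlp7 arrays 513, 618 and 592 and then 383, 430 and 418. In nlp7 it was already low before nitrate, and the 2 times overlapped. The nlp7 response was -0.11 ± 0.13 (SE, limma adjusted p = 0.82).

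AT4G00910, of the aluminium-activated malate transporter family, had 161, 92 and 121 at 0 min and 68, 42 and 66 at 35 min in Col-0, and 153, 126 and 152, then 51, 54 and 43, in nlp6. In nlp7 the values were 170, 91 and 114 and then 83, 127 and 109, and in nlp6nlp7 73, 91 and 87 and then 86, 69 and 104. Times overlapped in both lines that carry the nlp7 mutation and in neither of the others. Its nlp7 response of -0.17 ± 0.19 (SE, limma adjusted p = 0.80) turned to 0.03 without nlp7 replicate 1 at 0 min and to 0.17 without that replicate at both times.

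AT3G25930 had 2190, 2008 and 1557 at 0 min and 723, 726 and 935 at 35 min in Col-0, and 2127, 1330 and 1884, then 776, 792 and 1270, in nlp6. In nlp7 it had 2201, 1701 and 1650 and then 1494, 1172 and 1077, and in nlp6nlp7 1703, 1721 and 1860 and then 1545, 1170 and 1341. Levels before nitrate overlapped in the 4 genotypes. The nlp7 response was -0.56 ± 0.20 (SE, limma adjusted p = 0.14). AT1G19960 read 714, 648 and 1145 and then 535, 657 and 739 in nlp7, with overlap, against 1670, 1672 and 1233 and then 814, 619 and 820 in Col-0. In nlp6 it had 1628, 1365 and 917 and then 639, 960 and 708, and in nlp6nlp7 1217, 776 and 1080 and then 824, 483 and 888. Its nlp7 response was -0.33 ± 0.26 (SE, adjusted p = 0.67).

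The other members matched to 1 gene, apart from AT1G65690 (-0.93, adjusted p = 0.13), all fell in nlp7 by the limma test. AT1G67360, which encodes a protein of the lipid droplet surface, had the lowest adjusted p among members with 1 gene (-0.77 ± 0.07 SE, 4.7e-07). Its Col-0 arrays gave 1260, 1351 and 1490 at 0 min and 621, 651 and 654 at 35 min, and its nlp7 arrays gave 1356, 1243 and 1303 and then 779, 738 and 736. In nlp6nlp7 it had 1334, 1326 and 1353 and then 909, 906 and 894. The order after nitrate was thus Col-0, then nlp7, then nlp6nlp7 with no overlap, while the 3 lines overlapped before it. UGT76C2, a glucosyltransferase that inactivates cytokinin, fell by 0.67, AT2G24580, a sarcosine oxidase, by 0.67, and TRM28, with a motif for binding TON1 of the cytoskeleton, by 0.46. AT2G41380, a methyltransferase, fell by 0.67 and AT1G07560 by 0.52.

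The member with the deepest reference response, 258133_at, has no gene name here. It had 3129, 3790 and 4153 at 0 min and 324, 376 and 418 at 35 min in Col-0, and 2960, 3105 and 2724, then 373, 355 and 368, in nlp6. In nlp7 the values were 2021, 2581 and 2147 and then 607, 459 and 650, and in nlp6nlp7 1631, 1698 and 1468 and then 837, 892 and 985. At both times nlp7 lay between the other lines without overlap, lower than Col-0 and nlp6 before nitrate and higher after it, with nlp6nlp7 farther out on both sides. In nlp7 it fell by 1.93 (SE 0.13, limma adjusted p = 3.1e-09), against -3.07 in the reference and -0.80 in nlp6nlp7.

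A second unnamed member, 261663_at, had 344, 332 and 354 at 0 min and 88, 76 and 99 at 35 min in Col-0, and 281, 256 and 294, then 78, 91 and 83, in nlp6. It read 304, 259 and 282 and then 151, 136 and 112 in nlp7, and 241, 256 and 233 and then 183, 149 and 174 in nlp6nlp7. All 35 min values of the lines with the nlp7 mutation lay above those of Col-0 and nlp6. It fell by 0.96 in nlp7 (SE 0.10, limma adjusted p = 2.1e-06).

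For 264643_at the values were 520, 472 and 461 at 0 min and 200, 228 and 214 at 35 min in Col-0, and 385, 282 and 373, then 196, 176 and 177, in nlp6. In nlp7 they were 338, 395 and 385 and then 244, 257 and 209, and in nlp6nlp7 372, 333 and 339 and then 416, 350 and 359. Times did not overlap in Col-0, nlp6 and nlp7 and did overlap in nlp6nlp7. The fall in nlp7 was 0.60 (response -0.60, SE 0.11, limma adjusted p = 0.0013), with an adjusted p of 0.078 when only the nlp7 arrays were fitted.

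Over all 46 unnamed members the nlp7 response ran from -1.93 to -0.30. The lowest after 258133_at was that of 261297_at (-1.23, limma adjusted p = 0.00010), the member that fell more in nlp7 than in the reference, and the highest was that of 249765_at (-0.30, adjusted p = 0.60). The brightest member of all, 266336_at, had 5512, 6141 and 7023 at 0 min and 2066, 1896 and 2407 at 35 min in Col-0, against 3897, 3263 and 2741 and then 2575, 2000 and 1675 in nlp6nlp7. Its nlp7 arrays gave 6613, 4609 and 3976 and then 4350, 2345 and 2195, so that replicate 1 was the highest at both times. The nlp7 response of 266336_at was -0.81 (adjusted p = 0.065) and did not pass.

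A smaller response can come with a lower level before nitrate, a higher level after it, or both, and the difference from the reference adds up exactly from these 2 parts. This describes values the rule used. Before nitrate, nlp6nlp7 was below the mean of Col-0 and nlp6 for 77 of the 93 members (82.8%), with a median of -0.31, against 59.8% of the other lowered probe sets and 44.1% of all. At 35 min it was above that mean for 70 members (75.3%), with a median of 0.29, against 64.5% and 56.7%. Both held for 54 members. The 0 min part was the larger for 45 members and the 35 min part for 48, against 105 and 109 of the other 214 and 12282 and 10414 of all 22714. In nlp7 the medians were -0.12 and 0.26, 73 members (78.5%) lay below the reference at 0 min and 82 (88.2%) above it at 35 min. The 35 min part was the larger for 62 members. The other lowered probe sets had nlp7 medians of -0.10 and 0.17, with 65.4% below at 0 min and 73.4% above at 35 min. Over all probe sets these shares were 47.8% and 60.0%.

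Named members took different courses. Of the 45 with 1 gene, 14 were lower in nlp6nlp7 before nitrate and within 0.1 of the reference on the log2 scale afterwards, among them AT1G60010 (-0.69 and 0.07), AT1G48690 (-0.69 and -0.04), AT2G36950 (-0.67 and -0.01), SGT1A (-0.52 and -0.08) and AT3G12050 (-0.49 and 0.04). The opposite course, within 0.1 before and higher after, was taken by 7: AT3G25930 (-0.05 and 0.64), AT5G02580 (0.02 and 0.61), AT1G62422 (0.04 and 0.46), AT1G07560 (0.09 and 0.45), AT1G20823 (-0.01 and 0.45), AT2G44940 (0.07 and 0.44) and AT2G41380 (0.01 and 0.35). AT1G07560 encodes a receptor-like kinase with leucine-rich repeats. These courses were counted at the deposited scaling only, and the margin of 0.1 is small beside a change of scaling. With array median centring, the median of nlp6nlp7 minus nlp6 over all probe sets and both times moved from 0.02 to -0.08. For all 5 protein folding members the 0 min part was the larger, and so it was for 3 of the 4 auxin members, 2 of the 5 of protein turnover and 1 of the 2 transcription factors. Over all 93 members it was the larger for 45. The rule used these values and the groups were formed afterwards, so nothing particular to a role is read from these counts.

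**Figure D4:**
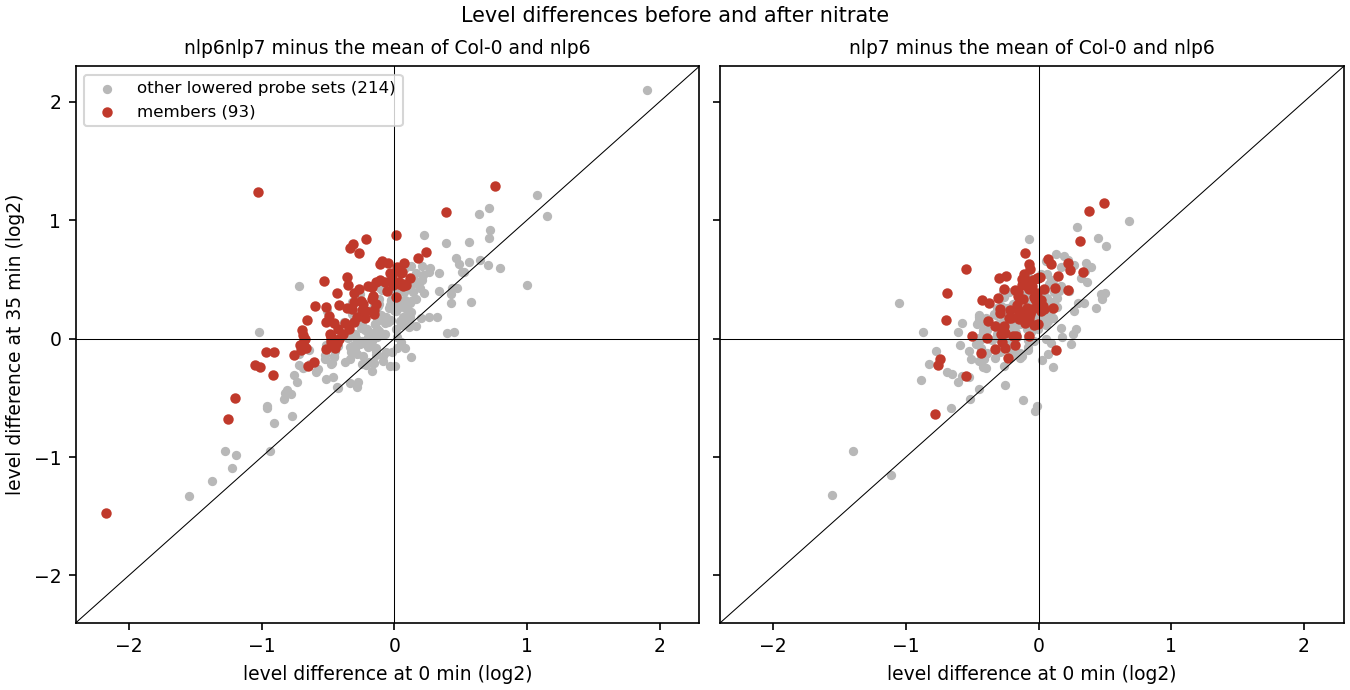
Level difference from the mean of Col-0 and nlp6 at 35 min (vertical axis, log2) against that at 0 min (horizontal axis, log2), for nlp6nlp7 on the left and nlp7 on the right, with members in red and the 214 other lowered probe sets in grey. Members above the diagonal respond less than the reference, and 54 of the 93 lie in the upper left part of the nlp6nlp7 panel, lower before nitrate and higher after it.

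Levels over both times together are not fixed by the rule, which used differences between times in these lines. Against nlp6, the double mutant was lower for 15 members (16.1%) and higher for 16 (17.2%) by limma, against 5.68% and 9.04% of all probe sets, with a median of 0.00. The other lowered probe sets gave 27 lower and 39 higher of 214. The split depends on scaling, with 14 lower and 9 higher after quantile normalization, and 22 lower and 8 higher once every array was centred on its own median. Members were thus called in both directions under each scaling. With same-numbered arrays of a genotype averaged over both times, 1 value per replicate, 9 were lower and 10 higher.

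All shifts named next were also called in that averaged fit. The highest was that of AT1G27210, an armadillo-repeat protein gene, at 1.07 ± 0.07 (SE, limma adjusted p = 2.6e-09). It had 805, 782 and 725 at 0 min in nlp6nlp7 and 450, 409 and 410 in nlp6. GH3.17 followed at 0.81 ± 0.09 (adjusted p = 1.5e-06). In the gene order 93 protein-coding genes lie between these 2, a count made after their levels were seen. AT1G07560 was higher by 0.43 (adjusted p = 7.3e-05), and so were the unnamed 264643_at (0.48) and 267591_at (0.48). Lower in nlp6nlp7 were 254550_at by -2.32 ± 0.26 (SE, adjusted p = 2.6e-06), 251436_at by -1.11, and a probe set for AT4G12290 or AT4G12280, both copper amine oxidases, by -0.81. bZIP44 was at -0.57 ± 0.07 (adjusted p = 9.3e-06), WES1 at -0.50 and AT5G01720 at -0.43, all called lower. These adjusted p values come from the first fit, which counts arrays of both times as independent. In the averaged limma fit they were 2.85e-05 for AT1G27210, 0.00045 for GH3.17, 0.0048 for AT1G07560, 0.0012 for 254550_at and 0.0020 for bZIP44. Some of the shift sizes rest in part on nlp6. Over both times nlp6 lay above Col-0 by 1.001 for 254550_at and by 0.23 for bZIP44, and nlp6nlp7 lay from Col-0 by -1.32 and -0.33. For AT1G07560 nlp6 lay at -0.33 and nlp6nlp7 at 0.11 from Col-0, and for 264643_at at -0.33 and 0.15.

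In nlp7 against nlp6 over both times, 4 members (4.30%) were lower and 12 (12.9%) higher by limma, against 1.63% and 2.67% of all probe sets. Of the other 214 lowered probe sets, 14 (6.54%) were lower and 9 (4.21%) higher. Since same-numbered nlp7 arrays deviate together, the error of this fit is too small. With 1 value per replicate averaged over both times, only 2 members were called, 251436_at lower (-0.85, adjusted p = 0.023) and 262826_at higher (0.55, adjusted p = 0.017). bZIP44 (-0.31) and AT1G53180 (0.29) were called in the first fit and not in the averaged one (adjusted p = 0.13 and 0.18), and against Col-0 the level of bZIP44 in nlp7 over both times was -0.08. The median over members was 0.11, and it was 0.06 after quantile normalization, 0.04 after centring, and 0.06 or 0.05 without nlp7 replicate 1 at 0 min or at 35 min. This comparison and the previous one share the nlp6 arrays. The 16 calls of the first fit moved to 10 after quantile normalization, with 6 lower and 4 higher. Centring on the array median gave 8 lower and 3 higher. It moved to 3 with only the arrays compared, to 9 without nlp7 replicate 1 at both times, and to 9 or 10 without any 1 of nlp6 replicate 2 or nlp7 replicate 1 at 0 min, or nlp6 replicates 1 and 2 or nlp7 replicates 1 and 2 at 35 min.

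Other listed genes of early responses were read in nlp7 for orientation, and none of them is a member. The nitrate-induced genes AT1G25550, AT1G68670 and AT3G25790, of 18 listed, all rose by the limma test, by 1.84, 1.70 and 1.15. The hypoxia gene AT3G10040 (HRA1), 1 of 10 and left out of the members by name, fell with -0.89. STZ (-0.999) and WRKY53 (-0.58), transcription factors of early stress responses and 2 of 10 listed, both fell, and WRKY53 is among the other 214. The clock gene GI, 1 of 9, fell with -0.47. The type-A response regulators ARR15 (-0.53) and RR16 (-0.23), the iron genes BHLH101 (-0.48) and PYE (-0.33), and NRT2.5 of nitrogen starvation (-0.34) did not pass. The root markers EXPA18 (-0.37) and EXPA7 (-0.10) and the 4 shoot markers, from PRK (0.30) to LHCB4.2 (-0.23), did not pass either. No gene could be read of the lists for NIN-like proteins, phosphate starvation, abscisic acid and sulfur deficiency.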

How the data were processed

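The values deposited by the authors are intensity values per probe set of 24 ATH1 arrays, on a linear scale and between 1 and 36178. The sources used here do not give the summarising software. All 24 columns were used, and of 22776 probe sets 62 controls were dropped. Deposited intensities were moved to log2 with a pseudocount of 26 (their 20th percentile), which understates the change of dim members. Probe sets were named from the probe table and TAIR10.1 gene names (13490 match 1 gene, 503 several, 8721 none), and no coordinates are given because the array table names no genome build.

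A model with 1 mean per group was fitted to all 24 arrays in limma 3.58.1 (R 4.3.3). Two-sided contrasts were the nlp7 response, the nlp6 minus Col-0 response, and the nlp6nlp7 and nlp7 levels against nlp6 over both times, with Benjamini-Hochberg adjustment over 22714 probe sets and a threshold of 0.05. The script was tested on simulated data. Contrasts that the rule used were not tested. Members, roles and the 14 gene lists were chosen with earlier results of these data known. Array values are given for members matched to 1 gene with the 10 largest gaps between reference and nlp6nlp7, the 5 lowest and 5 highest nlp7 responses and the 5 highest Col-0 intensities, for 3 unnamed members, and for members on a list. Array values of bZIP44, AT2G44940, AT1G27210, AT1G67360 and 266336_at were added after they were seen.

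Same-numbered nlp7 arrays at 0 and 35 min deviated together from their group means (correlations across probe sets of 0.647, 0.200 and 0.483). Replicate 1 stood apart, while replicates 2 and 3 also correlated across their numbers (0.29 and 0.244). In Col-0 the same-numbered values were 0.044, 0.093 and 0.191, in nlp6 0.027, 0.250 and 0.136, and in nlp6nlp7 0.295, 0.318 and 0.094. All differently numbered nlp6nlp7 arrays correlated negatively. Whether the numbers pair arrays is not settled in any genotype, and the main fit took no pairs. Repeats are biological per the labels. Precision is limited by the number of arrays. Alternatives were pseudocounts of 3 and of the 40th percentile, quantile normalization, array median centring, no dimmest 25%, a trended variance, only the arrays compared, 1 probe set per gene, replicate blocks, same-numbered arrays averaged over times for the level contrasts (added after seeing the data) and each array left out. Tables and plots used Python 3.11.15, numpy 2.4.6, pandas 2.3.3 and matplotlib 3.10.9.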

Additional observations from a re-analysis of the deposited data

How the results depend on the processing

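The 66 members called lower in nlp7 were 64 to 71 under the settings that kept all arrays in the fit, with 70 when replicate number was a block across groups and 73 as a block within genotype, and 19 with only the nlp7 arrays. Leaving out 1 array gave 51 to 67, with 51 without nlp7 replicate 3 at 35 min, and 60 without nlp7 replicate 1 at both times (added after seeing the data, as was the block within genotype). Of the 66, 19 were called under all 17 alternatives and 40 under all but the fit of the nlp7 arrays alone, and 13 of the 27 others were called in none. The median nlp7 response of -0.65 became -0.54 with the higher pseudocount (the 40th percentile) and lay between -0.70 and -0.56 with 1 array left out. The nlp6 minus Col-0 response called 0 members by limma in every alternative run. The 31 level differences of nlp6nlp7 against nlp6 were 23 to 32, but 19 with same-numbered arrays averaged over times, a replicate block added after seeing the data. The 16 of nlp7 against nlp6 became 10 after quantile normalization, 3 with only the arrays compared, 2 with same-numbered arrays averaged, and 9 to 18 with 1 array left out, or 9 without nlp7 replicate 1 at both times. The cause of these moves was not tested. With only the arrays compared, nlp6nlp7 against nlp6 kept 30 calls. The rule gave 125 members with a pseudocount of 3 and 61 with the higher one (92 and 55 of them among the 93), 53 and 150 with ratio limits of 0.5 and 0.7, 49 with a reference response of at most -1, and 81 to 122 with 1 array left out. Of 22 members followed by name in nlp7, 8 kept their call in all 17 alternatives. AT4G00910, AT1G14200, AT3G25930, AT3G50300 and AT1G19960 were called in none. AT4G00910, never called, ran from -0.34 to 0.03 with 1 array left out, reversed to 0.03 without nlp7 replicate 1 at 0 min and to 0.17 without it at both times. Few arrays per group limit what could be detected. Whether low intensity near the pseudocount also did so was not tested. Of the members called in none, AT4G00910 was dim and AT3G25930 bright, with mean Col-0 intensities at 0 min of 125 and 1918.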
